A study of Homo sapiens with 4 samples.

Results

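The genes described here are 10 components of the Hedgehog signalling pathway and its kinesin relatives, KIF27, KIF7, STK36, SMO, PTCH1, SUFU, GLI1, GLI2, GLI3 and HHIP. They were taken from the count tables by gene symbol, and each matched 1 of the 62696 genes. KIF27 is included because its name stands in the headers of the count columns and because it is a paralog of KIF7. RNA of NT2 cells, the human embryonal carcinoma line NTERA-2 that can form neurons, was sequenced after depletion of ribosomal RNA. The series compares cells labelled as carrying an empty vector and of wild type genotype (1 library) with cells labelled as HYDIN2 knockdown (3 libraries, replicates 1 to 3). The columns are headed as a LacZ control and as numbered GKAP_KIF27 sets. The labels do not give the construct, the time after its introduction, or whether the replicates were separate cultures or clones, so the spread between them may be technical.

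In vertebrates, PTCH1 is the receptor that holds the transmembrane protein SMO inactive, and a Hedgehog ligand that binds PTCH1 releases SMO. Active SMO works at the primary cilium, where it frees the GLI transcription factors from SUFU and stops the processing of GLI3 and GLI2 to repressors. GLI1, PTCH1 and the ligand decoy HHIP are themselves transcribed in response to the pathway, so their RNAs are widely used as its readouts. KIF7 is the kinesin that organises the tip of the primary cilium. KIF27 and the kinase STK36 are known in mice for a part in motile cilia, and HYDIN, the parent gene of the partial copy HYDIN2, encodes a protein of the central pair of motile cilia.

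Library totals ran from 25181737 counts in the empty vector library to 62904698 counts in the labelled knockdown replicate 1. The empty vector library is called the control below, and the labelled knockdown libraries are called replicates 1, 2 and 3. Levels are given as CPM, which relates counts to the library total scaled by the trimmed mean of M-values (TMM), and comparisons between genes as CPM per kilobase of merged annotated exons. Intervals are 95% intervals of counting error alone, computed on counts divided by 2, since most counts were even. HYDIN2, the gene the labels name as knocked down, had 12 counts in the control and 150, 112 and 11 counts in replicates 1, 2 and 3. Relative to the control, its scaled level was 4.82 (2.11 to 13.5) in replicate 1, 3.75 (1.62 to 10.7) in replicate 2 and 0.704 (0.180 to 2.697) in replicate 3. The target was thus higher, beyond counting error, in 2 of the 3 libraries labelled knockdown and did not differ detectably in the third, which goes against the label. HYDIN2 is a partial copy of HYDIN, and how reads shared by both were counted is not given in the sources used here. HYDIN itself had ratios of 1.54 (1.18 to 2.04), 1.43 (1.09 to 1.91) and 0.757 (0.531 to 1.08) in replicates 1, 2 and 3. Directions below are those of libraries labelled knockdown. Between replicates 1 and 2, 0.177% of genes were 2-fold or more apart, and between them and replicate 3, 22.3% and 23.7%. Between the control and the replicates this held for 17.1% to 27.8% of genes. All 8 embryonal carcinoma markers examined, POU5F1, NANOG, SOX2 and LIN28A among them, had counts in every library.

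PTCH1, GLI2 and GLI3 were higher in each labelled knockdown library than in the control, by means of 2.31-fold, 2.32-fold and 2.01-fold. HHIP, at a very low level, was 6.21-fold higher in the mean. In bulk RNA, more cells of a type and more RNA per cell cannot be told apart. SMO was at most 1.32-fold above the control in any replicate, and KIF27 lay slightly below it in all 3. SUFU, KIF7 and STK36 were lower than the control in replicates 1 and 2 and higher in replicate 3, and GLI1 showed the opposite order. No member reached the 2-fold rule described below in all 3 replicates among those abundant enough to be tested.

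**Figure D1:**
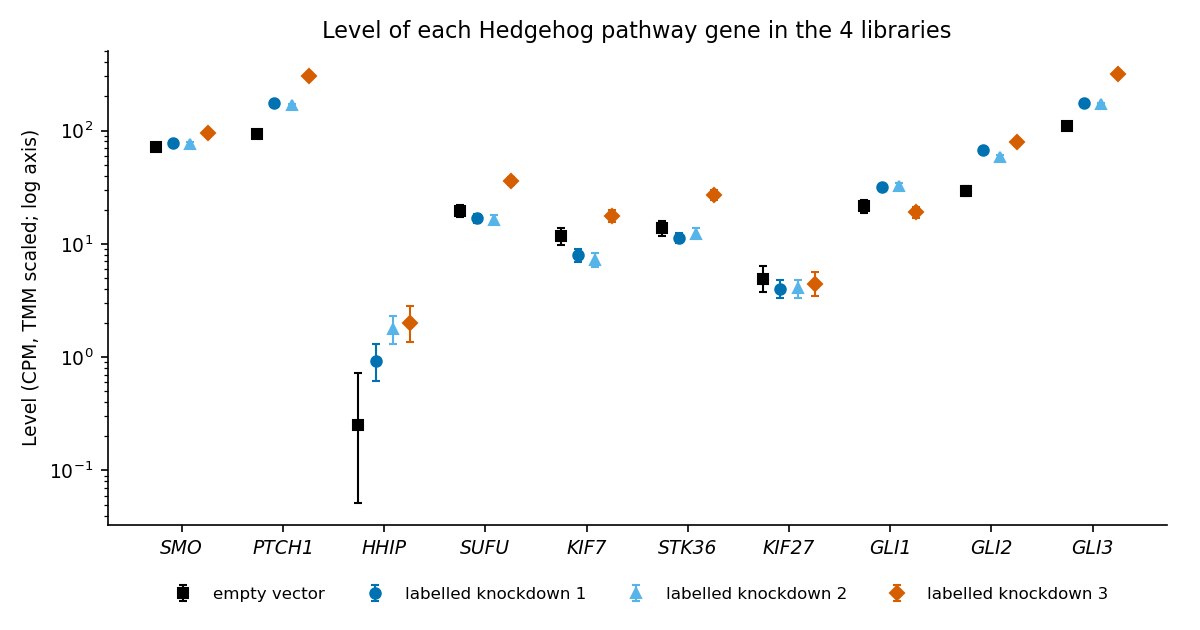
Level of the 10 genes in each library, in CPM on a log axis; squares are the empty vector library, circles, triangles and diamonds the labelled knockdown replicates 1, 2 and 3, and bars are 95% counting intervals. PTCH1, GLI2, GLI3 and HHIP lie above the empty vector library in all 3 replicates, as does SMO by at most 1.32-fold, and SUFU, KIF7 and STK36 only in replicate 3.

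Per kilobase of exon, SMO was the most abundant member in the control, at 16.6 CPM per kilobase, followed by GLI3 at 10.1. PTCH1 had 5.65, GLI1 5.09, GLI2 4.00, SUFU 2.84, KIF7 2.33, STK36 2.12 and KIF27 0.956 CPM per kilobase. HHIP was last at 0.0207. In the mean of the labelled knockdown libraries GLI3 came first at 20.2 ± 7.63 CPM per kilobase (SD, n = 3) and SMO second at 19.2 ± 2.36. GLI3 exceeded SMO in 1 of the 3 libraries, so the order of this pair was not resolved beyond their spread. PTCH1 followed at 13.0 ± 4.64, GLI2 at 9.27 ± 1.40 and GLI1 at 6.58 ± 1.80 (SD, n = 3). Ranges over the 3 libraries overlapped for most neighbours in this order, SMO with PTCH1, PTCH1 with GLI2, GLI1 with SUFU, SUFU with STK36 and STK36 with KIF7. They did not overlap for GLI2 above GLI1, for KIF7 above KIF27 or for KIF27 above HHIP. KIF7 had 2.18 and KIF27 0.808 CPM per kilobase in that mean. These levels rest on annotated exon lengths from 4204 bases in GLI1 to 16591 bases in PTCH1, not all of which need be used in NT2 cells.

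PTCH1 (ENSG00000185920.18), the Hedgehog receptor, is annotated on GRCh38 chromosome 9, minus strand, from 95442980 to 95517057. It had 93.7 CPM in the control and 177, 167 and 305 CPM in replicates 1, 2 and 3. All 3 replicates lay above the control, and replicate 3 lay above the other two. The ratios to the control were 1.89 (1.77 to 2.01), 1.78 (1.67 to 1.90) and 3.25 (3.05 to 3.47). On the log2 scale the difference averaged 1.15 ± 0.48 (SD, n = 3), which exceeded the spread between replicates. It was 0.46 ± 0.23 once smooth trends of the differences on transcript length and GC content were removed. An antisense gene (ENSG00000271155) shares 711 exon bases with PTCH1, and its own level was 0.542 CPM in the control and at most 1.41 CPM in the others.

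Because PTCH1 is a known direct target of the GLI factors, its promoters were searched for the GLI consensus GACCACCCA, read on both strands. RefSeq promoter windows of GRCh38.p14, the 250 bases before each start, were at hand for 7 of the 10 members, 13 windows in all. Only 1 of these windows held the motif, as TGGGTGGTC on the sense strand of PTCH1, with its first base 172 bases before the start. Of 35116 promoter windows of all genes, 0.199% held it. The PTCH1 window with the motif is shown 5′ to 3′ with the motif in capitals, beside 1 of the 2 GLI2 windows and the HHIP window as examples from members with larger differences, the last cut to the part before the first coding transcript.
PTCH1, chr9:95509267-95509516, minus strand: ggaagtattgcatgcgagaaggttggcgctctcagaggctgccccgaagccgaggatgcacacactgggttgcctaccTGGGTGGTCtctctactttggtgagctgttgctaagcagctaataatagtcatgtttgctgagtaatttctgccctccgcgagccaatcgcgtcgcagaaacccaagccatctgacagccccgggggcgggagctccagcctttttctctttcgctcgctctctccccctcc
GLI2, chr2:120735618-120735867, plus strand: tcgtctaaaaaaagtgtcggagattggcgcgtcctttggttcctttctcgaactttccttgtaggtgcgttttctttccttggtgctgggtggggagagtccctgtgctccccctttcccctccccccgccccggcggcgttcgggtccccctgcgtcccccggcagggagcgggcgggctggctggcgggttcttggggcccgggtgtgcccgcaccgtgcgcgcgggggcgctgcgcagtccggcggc
HHIP, chr4:144645906-144646020, plus strand: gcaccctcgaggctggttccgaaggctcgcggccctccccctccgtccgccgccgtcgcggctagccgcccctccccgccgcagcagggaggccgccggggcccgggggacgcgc
The match is a description of these letters, and the counts do not show which PTCH1 start was used. The other 4 PTCH1 windows and those of KIF7, STK36, SMO, SUFU, GLI2 and HHIP did not hold these letters.

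HHIP (ENSG00000164161.10; chromosome 4, 144646021 to 144745271, plus strand) binds Hedgehog ligands at the cell surface and keeps them from PTCH1. It had 6 counts in the control and 57, 105 and 62 counts in replicates 1, 2 and 3. These correspond to 0.250, 0.915, 1.76 and 1.98 CPM, so the 3 replicates all lay above the control. The ratios were 3.66 (1.13 to 18.8), 7.04 (2.28 to 35.2) and 7.94 (2.48 to 40.6). At 6 counts in the single control the size of these ratios is poorly determined. HHIP had a mean CPM of 0.901 over the 2 groups, below the minimum of 1 set for the 2-fold rule, and was not tested by it. HHIP-AS1, which shares 178 exon bases with HHIP on the other strand, had 10, 26, 18 and 4 counts in the control and replicates 1, 2 and 3. Its levels, 0.417, 0.418, 0.302 and 0.128 CPM, did not follow those of HHIP.

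SMO (ENSG00000128602.11; chromosome 7, 129188872 to 129213545, plus strand), the signal transducer released by PTCH1, had 71.4 CPM in the control and 77.2, 76.4 and 94.4 CPM in the replicates. The mean log2 difference was 0.20 ± 0.17 (SD, n = 3). Replicate 3 alone, at a ratio of 1.32 (1.22 to 1.44), stood clearly apart from the control in counting terms, while the interval of replicate 1 began at 1.00 and that of replicate 2 included 1.

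Among the transcription factors, GLI2 (ENSG00000074047.22; chromosome 2, 120735623 to 120992653, plus strand), known as the main activator of the pathway, had 29.4 CPM in the control. The replicates 1, 2 and 3 had 67.8, 57.9 and 78.4 CPM, all above the control. The log2 differences were 1.21, 0.98 and 1.42, so replicate 2 lay just short of 2-fold. Their mean of 1.20 ± 0.22 (SD, n = 3) had the smallest spread relative to its size among the higher members. Removal of the length and GC trends left 0.90 ± 0.08 (SD, n = 3), with values of 0.97, 0.82 and 0.91.

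GLI3 (ENSG00000106571.15; chromosome 7, minus strand, 41960950 to 42237870), the main source of the GLI repressor, had 110.2 CPM in the control and 175, 171 and 318 CPM in the replicates. As for PTCH1, all replicates lay above the control and replicate 3 was highest. The mean log2 difference was 0.94 ± 0.51 (SD, n = 3), and 0.43 ± 0.31 after removal of the length and GC trends. Total RNA counts do not separate full-length GLI3 from its repressor form, which is made by processing of the protein.

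GLI1 (ENSG00000111087.10; chromosome 12, 57460135 to 57472262, plus strand), an activator whose transcription depends on the pathway, had 21.4 CPM in the control and 31.6, 32.5 and 19.0 CPM in the replicates. Replicates 1 and 2 lay above the control, with ratios of 1.47 (1.28 to 1.70) and 1.52 (1.32 to 1.75). Replicate 3, at 0.885 (0.746 to 1.05), did not differ from it beyond counting error. Its log2 differences averaged 0.33 ± 0.44 (SD, n = 3), less than their spread. GLI1 was the only member lower in replicate 3 than in replicates 1 and 2, at -0.76 from their mean on the log2 scale, whereas the other 9 members were between 0.14 and 1.21 higher there.

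**Figure D2:**
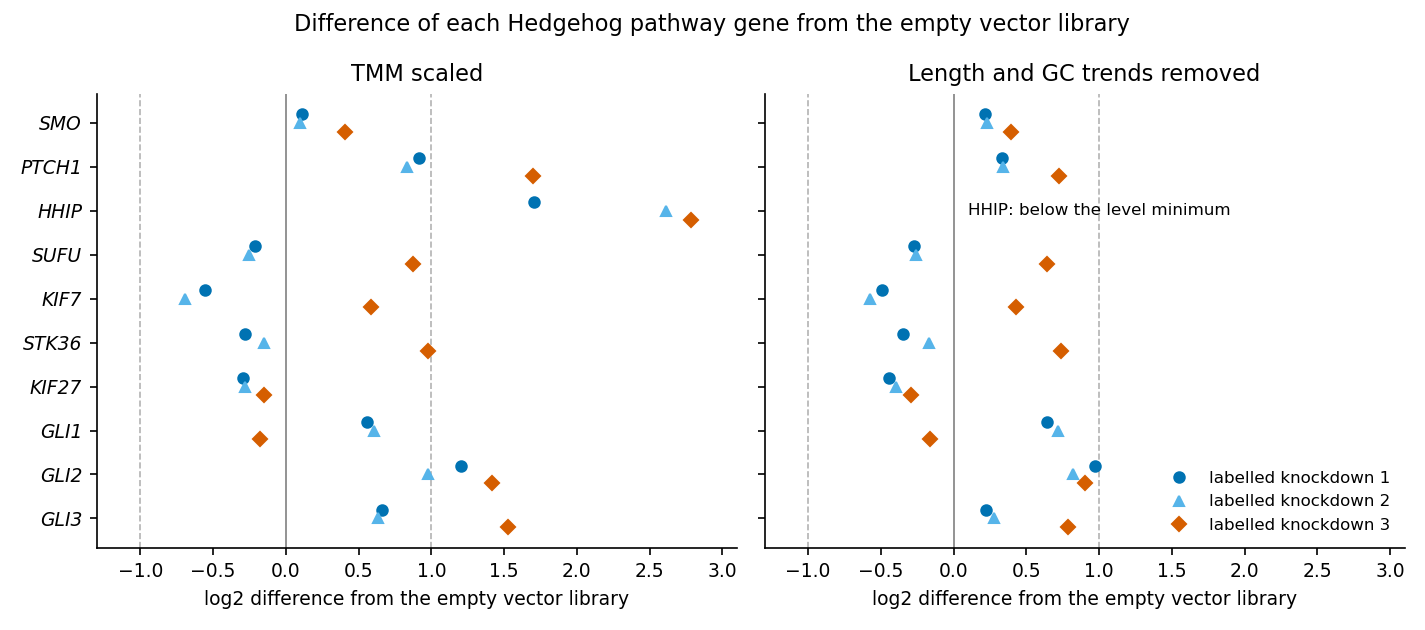
Log2 difference of each gene from the empty vector library in the labelled knockdown replicates 1 (circles), 2 (triangles) and 3 (diamonds), with TMM scaling on the left and after removal of transcript length and GC trends on the right; dashed lines mark 2-fold. PTCH1 and GLI3 lie closer to 0 on the right, with means of 0.46 and 0.43, than on the left, with means of 1.15 and 0.94.

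The differences of these genes were set against transcript length. The 4 members with the largest mean differences, HHIP, GLI2, PTCH1 and GLI3, were the 4 with the longest annotated transcripts, from 6799 to 10631 bases. The other members had transcripts of 3613 to 5001 bases. Within these groups the order did not follow length. GLI2, at 6799 bases, had a larger mean difference than PTCH1, at 10631 bases. Among the shorter members the largest was that of GLI1, the shortest, at 0.33. Across 15485 tested genes, Spearman correlations of the log2 difference with transcript length were 0.347, 0.298 and 0.460 in replicates 1, 2 and 3. Genes share their library in these values. The differences of PTCH1, GLI2 and GLI3 from the control remained above 0 in each of the 3 replicates after trend removal, the smallest being 0.22 for GLI3 in replicate 1.

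SUFU (ENSG00000107882.12; chromosome 10, 102503987 to 102633535, plus strand), which binds the GLI proteins and restrains them, had 19.5 CPM in the control and 16.8, 16.4 and 35.7 CPM in the replicates. KIF7 (ENSG00000166813.17; chromosome 15, minus strand, 89608789 to 89655451) had 11.7 CPM in the control and 7.93, 7.19 and 17.5 CPM in the replicates. STK36 (ENSG00000163482.12; chromosome 2, 218672026 to 218702716, plus strand), the relative of the fly kinase Fused, had 13.7 CPM against 11.3, 12.3 and 27.0 CPM. In all 3 genes replicates 1 and 2 lay below the control and replicate 3 above it, so the groups overlapped. For KIF7 the ratios of 0.680 (0.551 to 0.843) and 0.616 (0.496 to 0.768) in replicates 1 and 2 and of 1.504 (1.22 to 1.86) in replicate 3 all excluded 1. The ratios of replicate 3 were 1.83 (1.57 to 2.14) for SUFU and 1.97 (1.64 to 2.37) for STK36. The mean log2 differences were 0.14 ± 0.64 for SUFU, -0.22 ± 0.70 for KIF7 and 0.18 ± 0.69 for STK36 (SD, n = 3), each smaller than its spread. Without replicate 3, the means for SUFU and STK36 were -0.23 and -0.22. Without replicate 2, that for KIF7 was 0.017.

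KIF7 shares 589 exon bases with TICRR on the other strand, and the strand setting of the counting is not given in the sources used here. TICRR, a DNA replication factor, had 58.3 CPM in the control and 50.6, 42.5 and 105 CPM in the replicates, the same order as KIF7. What TICRR reads contribute to KIF7 was not tested. STK36 shares 260 exon bases with RNF25, which had 37.5 CPM against 31.1, 31.3 and 26.6 CPM and was not higher in replicate 3.

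KIF27 (ENSG00000165115.15; chromosome 9, 83836698 to 83921465, minus strand) was the steadiest of the 10 genes in its log2 differences. It had 118 counts in the control and 249, 241 and 138 counts in the replicates, or 4.92 CPM against 4.00, 4.04 and 4.42 CPM. All replicates lay below the control, with ratios of 0.814 (0.592 to 1.13), 0.821 (0.597 to 1.14) and 0.899 (0.626 to 1.29). Each interval included 1, so a difference was not detectable at this depth. The mean log2 difference was -0.24 ± 0.08 (SD, n = 3). After removal of the length and GC trends the log2 differences were -0.44, -0.40 and -0.29. The intervals cover counting error alone against 1 control library, and the column headers name KIF27. These intervals therefore cannot decide whether KIF27 differed between the conditions. The 2-fold rule and the models described below, also with 1 control library, did not call it. KIF27 shares 348 and 441 exon bases with the antisense genes ENSG00000226877 and ENSG00000231616. The first had 0.375 CPM in the control and 0.225, 0.235 and 0.384 CPM in the replicates. The second had 0.417 CPM against 0.225, 0.134 and 0.768 CPM. What their reads contribute to KIF27 was not tested. GKAP1, the neighbour of KIF27 on chromosome 9, had 6.25 CPM in the control and 9.49, 11.2 and 6.08 CPM in the replicates. By Euclidean distance over the 3 log2 differences, the nearest of 13361 protein-coding genes to KIF27 were OGDH at 0.0119, RBM8A at 0.0223 and LIG1 at 0.0293. In all, 57 of these genes lay within 0.1 of KIF27.

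Calls required a log2 difference from the control of 1 or more, with one sign, in all 3 replicates. A mean CPM of at least 1 was needed for testing, which 9 of the 10 members had. Of these 9, 0 were called, against a background of 3.65% of 15880 genes called higher and 2.72% called lower. A single control library gives this rule no measure of spread among controls. At a 1.5-fold rule 3 of the 9 members, PTCH1, GLI2 and GLI3, were higher and 0 lower, where the background was 10.0% higher and 9.61% lower. The same 3 members had counting intervals above 1 in every replicate, a property of 17.7% of genes, and 0 had all intervals below 1, a property of 22.2%. The log2 difference was above 0 in each replicate for 4 of the 9 members (SMO, PTCH1, GLI2 and GLI3; background 30.1%) and below 0 in each for KIF27 (background 34.2%). Other settings of the rule called single members. GLI2 was called with total counts (background 4.64% higher) and without replicate 2 (4.36%). HHIP was called at a mean CPM of at least 0.1 (6.04%), with no filter (6.06%) and without replicate 1 (3.87%). Without replicate 1 it met the minimum of 1 only through its 1.76 and 1.98 CPM in replicates 2 and 3. That call is therefore not independent of the filter, and the control had 0.250 CPM. PTCH1 and GLI2 were called by the mean of the replicates (8.54% higher, 6.76% lower). No member was called with upper quartile scaling (3.85% higher), after trend removal (2.56% higher, 1.76% lower) or without replicate 3 (9.76% higher, 5.36% lower). The median of the mean log2 differences was 0.20 over the 9 members and -0.02 over all genes tested.

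edgeR's quasi-likelihood test, fitted over all genes with its spread taken from the 3 labelled knockdown libraries, called 0 of the 10 members and 0.0% of 26029 genes. Adjusted p-values of the members in edgeR ranged from 0.358 to 0.960. At an unadjusted p under 0.05 it had 3 of the 10 members, GLI2, HHIP and PTCH1, all higher, against 11.6% of genes. The Wald test of DESeq2 also called 0 of 10, with 1.72% of 15725 genes called. It had 4 members, those 3 and GLI3, at an unadjusted p under 0.05, against 6.48% of the 41692 genes with a p-value, a larger set than the 15725 with an adjusted one. Without replicate 3, edgeR called 6 of the 10 members (PTCH1, GLI1, GLI2, GLI3 and HHIP higher, KIF7 lower), but then 44.7% of all genes were called, and the spread came from replicates 1 and 2 alone.

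Ratios of genes within a library do not depend on how libraries are scaled. The ratio of PTCH1 to SMO counts was 1.31 (1.20 to 1.44) in the control and 2.29 (2.18 to 2.40), 2.18 (2.08 to 2.29) and 3.23 (3.04 to 3.42) in replicates 1, 2 and 3. All 3 replicates had more PTCH1 per SMO than the control. SUFU per GLI3 was 0.177 (0.153 to 0.203) in the control and lower in the replicates, at 0.0962 (0.0878 to 0.105), 0.0957 (0.0870 to 0.105) and 0.112 (0.103 to 0.123). Its mean log2 change of -0.81 ± 0.13 (SD, n = 3) was about equal in the 3 replicates, although SUFU and GLI3 were each highest in replicate 3. GLI2 per SUFU was less even, at 1.51 (1.27 to 1.78) in the control and 4.04, 3.53 and 2.19 in replicates 1, 2 and 3. These within-library ratios still carry any difference in the recovery of long and short transcripts.

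The readout genes GLI1 and PTCH1 parted in replicate 3. GLI1 per PTCH1 was 0.229 (0.199 to 0.262) in the control, 0.179 (0.167 to 0.191) in replicate 1 and 0.195 (0.182 to 0.209) in replicate 2, but 0.0622 (0.0551 to 0.0700) in replicate 3. Of the counts of the 3 GLI genes, GLI1 took 13.3% (11.8% to 14.9%) in the control, 11.5% and 12.4% in replicates 1 and 2, and 4.57% (4.07% to 5.10%) in replicate 3. GLI3 took 68.5%, 63.7%, 65.4% and 76.5% in the same order, and GLI2 18.2%, 24.8%, 22.1% and 18.9%. KIF27 per KIF7 was 0.421 (0.305 to 0.575) in the control and 0.504, 0.562 and 0.252 in the replicates, and only the interval of replicate 3, 0.191 to 0.329, reached below that of the control. That interval still overlapped the control's.

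**Figure D3:**
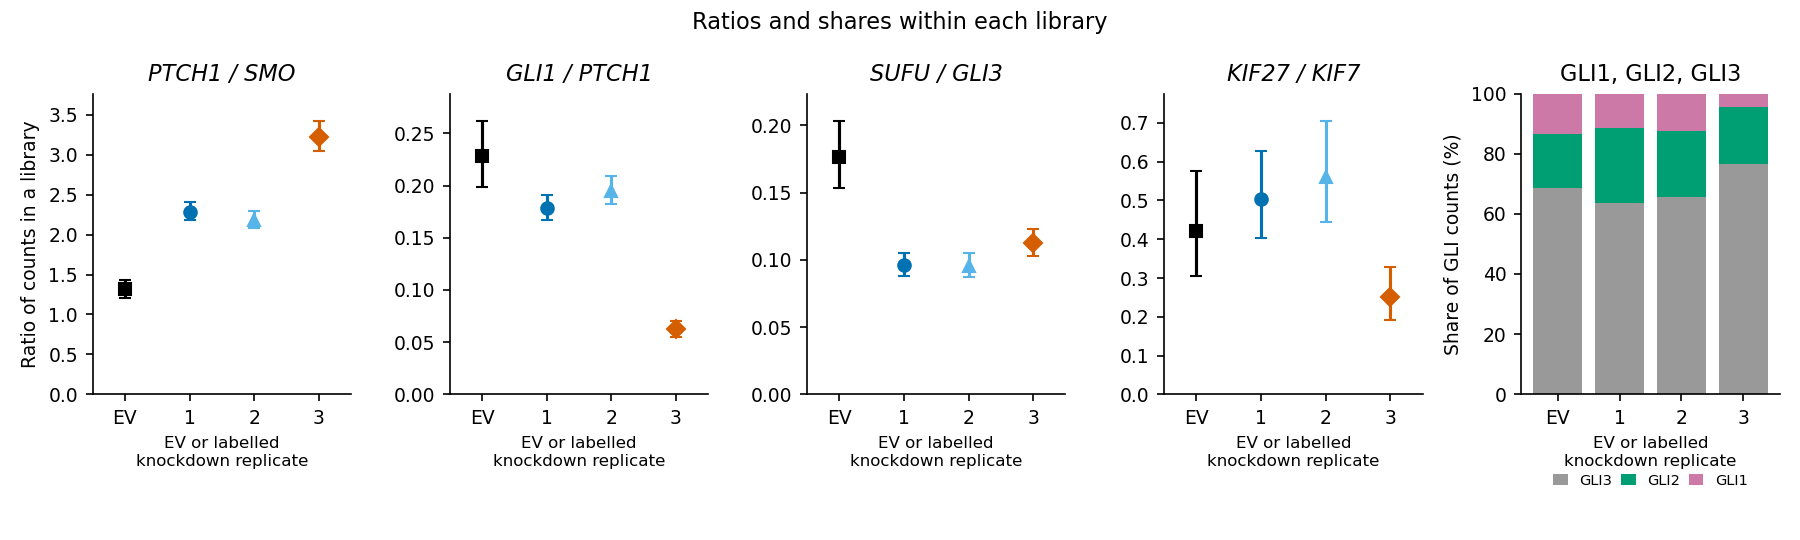
Ratios of counts within each library, with 95% Clopper-Pearson intervals as bars, for 4 pairs of genes, and on the right the share of the counts of GLI1, GLI2 and GLI3; EV is the empty vector library and 1 to 3 are the labelled knockdown replicates. PTCH1 per SMO is 1.31 in the empty vector library and 2.18 to 3.23 in the others, and the GLI1 share is 4.57% in replicate 3.

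Other genes of the pathway and of related lists were examined by the same rule, 53 of 70 being abundant enough. Only SCUBE3, a secreted protein of a family that helps release Hedgehog ligands, was called, and 0 were called lower. With 3.65% of all tested genes called higher and 2.72% lower, 1 of 53 is no more than the background. It had 3.83 CPM in the control and 10.6, 11.5 and 30.3 CPM in replicates 1, 2 and 3, a mean log2 difference of 2.00 ± 0.84 (SD, n = 3). After trend removal this was 1.56. Its relative SCUBE1 had 84 counts in the control, and its levels in the replicates were 0.528, 0.259 and 0.549 of the control's. In the list of ligands and their release, 5 of 10 genes were tested, with a median of -0.04. The ligand genes, named after their values were seen, were low. SHH had 8 counts in the control and 74, 48 and 6 in the replicates, or 0.333 CPM against 1.19, 0.804 and 0.192 CPM. Of its ratios only that of replicate 1, 3.57 (1.28 to 13.8), excluded 1. IHH and DHH were nearly silent, with at most 2 counts in any library.

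Of 5 coreceptor genes 4 were tested, with a median log2 difference of 0.59. LRP2, an endocytic receptor that binds SHH, had 3.12 CPM in the control and 7.90, 8.02 and 6.18 CPM in the replicates. CDON, a coreceptor of Hedgehog ligands, had 21.0 CPM and 26.9, 27.2 and 54.4 CPM. After trend removal their mean log2 differences were 0.33 and 0.08. All 24 transducer genes examined were tested, with a median of 0.16 and 0 calls. The largest differences there were those of GPR161, a ciliary receptor that restrains the pathway, and of the beta-arrestin gene ARRB2. GPR161 had 13.4 CPM in the control and 24.1, 18.8 and 37.1 CPM in the replicates. ARRB2 had 53.0 CPM and 31.9, 35.1 and 18.2 CPM. Trend removal left mean log2 differences of 0.41 for GPR161 and -0.57 for ARRB2.

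Of 14 genes listed as targets of the pathway in other tissues 8 were tested, with a median of 0.34 and 0 calls. Of these 8, 4 lay above the control in each replicate (background 30.1%) and 2 below it in each (background 34.2%). FOXF1, a mesodermal transcription factor, had 1.08 CPM in the control and 2.17, 2.14 and 3.84 CPM in the replicates. BCL2, an inhibitor of apoptosis, lay 0.74, 0.61 and 1.26 above the control on the log2 scale. Trend removal left mean log2 differences of 1.27 for FOXF1 and 0.38 for BCL2. The 3 tested kinesin-4 relatives of KIF7 and KIF27 went in different directions. KIF21B, a kinesin of neurons, had 25.8 CPM in the control and 11.1, 10.1 and 17.6 CPM in the replicates, while KIF21A had 47.9 CPM and 86.9, 80.5 and 101 CPM. Among 13 genes of the central pair of motile cilia 9 were tested and 0 were called, with a median of 0.47. CFAP69 lay 0.85, 0.85 and 1.34 above the control on the log2 scale, and SPAG16 had 28.5 CPM and 17.1, 18.0 and 11.7 CPM. The median over all tested genes was -0.02, and whether the list medians differ from it was not tested.

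**Figure D4:**
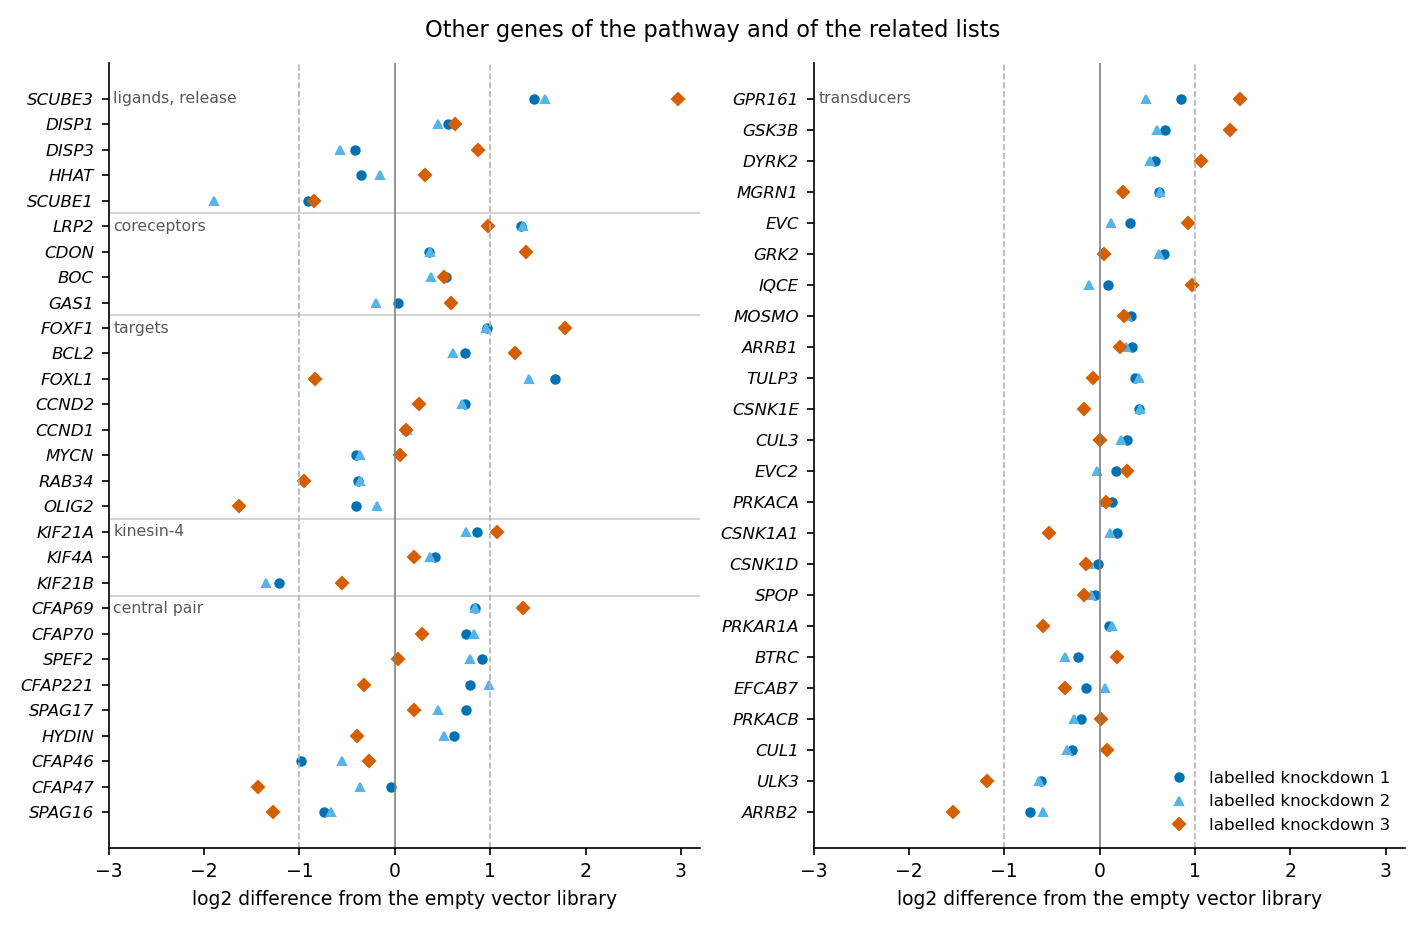
Log2 difference from the empty vector library of the 53 tested genes of the other lists in the labelled knockdown replicates 1 (circles), 2 (triangles) and 3 (diamonds), grouped by list; dashed lines mark 2-fold. SCUBE3 is the only gene with all 3 points past 2-fold, between 1.46 and 2.97.

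Markers of other cell states were examined beside these genes. The 2-fold rule called 2 of 7 tested neural markers (PAX6 and MAP2), 1 of 5 mesoderm and endoderm markers (HAND1) and 1 of 5 fibroblast markers (PDGFRB), all higher, where 3.65% of all tested genes were called higher and 2.72% lower. The summed level of 10 neural markers was 24.7 CPM in the control and 52.6 to 78.0 CPM in the labelled knockdown libraries, with PAX6 and NEUROG2 at 0 counts in the control NEUROD1 at 0 in replicates 2 and 3, and NEUROG2 at 0 in replicate 3. PAX6 had 957, 784 and 92 counts in the replicates. With 0 counts in the control, PAX6 met the level minimum only through the labelled knockdown libraries. Its call is therefore not independent of the filter. The 7 mesoderm and endoderm markers summed to 16.7 CPM in the control and to 47.8, 42.7 and 108 CPM in replicates 1, 2 and 3. TBXT was at 0 in replicates 1 and 2, and HAND1 had 8.16 CPM in the control and 33.7, 31.4 and 71.2 CPM in the replicates. The 6 fibroblast markers summed to 145 CPM against 212 to 271 CPM, with DCN at 0 in 3 of the 4 libraries and PDGFRB at 34.1 CPM against 94.6, 86.6 and 73.6 CPM. The 8 embryonal carcinoma markers summed to 6127 CPM in the control and 6644, 6887 and 3649 CPM in replicates 1, 2 and 3. LIN28A was the largest part of each sum, at 2844 CPM in the control and 3513, 3620 and 1912 CPM in the replicates. POU5F1, TDGF1, DPPA4 and L1TD1, 4 of the 8, lay below the control in each replicate (background 34.2%), and 0 lay above it in each. By median, the list stood at -0.08 on the log2 scale for replicate 1, -0.03 for replicate 2 and -0.84 for replicate 3. L1TD1 had 472 CPM in the control against 241, 239 and 227 CPM. The part of these states in the levels of PTCH1, HHIP and the GLI genes was not tested.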

How the data were processed

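The authors deposited raw counts per gene, 1 table per library. The submitters' processing notes name STAR 2.7.11b, featureCounts 2.0.6, DESeq2 and the build hg38 (GRCh38). The annotation release and the strand setting of the counting are not given in the sources used here. Between 65.2% and 68.0% of nonzero counts were even, so intervals (exact Poisson for levels, Clopper-Pearson for ratios and shares) used counts divided by 2. Floors and intervals cover counting error only; 3 counts corresponded to between 0.0482 and 0.125 CPM.

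Counts were scaled by TMM (edgeR 4.0.16, R 4.3.3) over genes kept by filterByExpr, and log2 CPM used a prior count of 2. GENCODE 29 (GRCh38) gave coordinates, exon and transcript lengths and GC content, and matched 58225 of the 62696 identifiers. Trends were removed by lowess with a span of 0.3 (statsmodels 0.14.6). edgeR and DESeq2 1.42.0 were fitted on the whole table, with Benjamini-Hochberg adjustment. The call rule and both models were run on simulated counts with the same spread in every library. The replicates here were unevenly spread, so their behaviour on such data was not tested. The members, lists and tests were chosen with earlier results of these data known. Besides the members, the text names genes past the rule and the 2 largest mean differences of each list. It also names HYDIN2, HYDIN, GKAP1, the genes nearest KIF27 in pattern, and genes whose exons overlap a member's. Others are named as chosen after their values were seen, or as absent or identity markers. Alternatives were other scalings, prior counts, level minimums and folds, and leaving out each labelled knockdown library. A gene of the transducer list is not reported here and was left out of the list counts.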

Additional observations from a re-analysis of the deposited data

How the results depend on the processing

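No paired analysis was possible because only a single control, without a replicate number, was analysed. The number of members past the 2-fold rule, 0 as reported, was 1 with total counts (GLI2), 1 with a mean CPM of at least 0.1 and 1 with no filter on low counts (HHIP in both), 2 by the mean of the labelled knockdown libraries (PTCH1 and GLI2) and 3 at 1.5-fold. Leaving out single replicates gave 0 to 1, with HHIP called without replicate 1 and GLI2 without replicate 2. HHIP then met the level minimum only through the labelled knockdown libraries. The number of other listed genes past the rule, 1 as reported, was 2 with total counts and 2 with upper quartile scaling (LRP2 added in both), 4 after trend removal, 3 with a mean CPM of at least 0.1, 4 with no filter, 11 at 1.5-fold and 6 by the mean. Leaving out replicates gave 1 to 5, the highest without replicate 3. edgeR's calls among the members ranged from 0 to 6 over the omitted replicates, with 6 only without replicate 3, whose omission leaves the near-identical replicates 1 and 2. Of 89 alternative values of the members' mean log2 differences, 3 changed direction. Over the omitted replicates, KIF7 ran from -0.62 to 0.017 (above 0 only without replicate 2), STK36 from -0.22 to 0.41 and SUFU from -0.23 to 0.33 (both below 0 only without replicate 3). The log2 change of KIF27 per KIF7, -0.02, ran from -0.24 to 0.34 (above 0 only without replicate 3). Total counts moved the median of all genes in replicate 3 from -0.15 to 0.05. The range over alternatives was 0.90 to 1.31 for GLI2, 0.46 to 1.31 for PTCH1 and 0.43 to 1.09 for GLI3, the low end being trend removal in each. HHIP gave no value after trend removal, since it lay below the level minimum, and its 6 control counts limit its ratios. The counting interval rule was chosen after seeing the data, and the within-library ratios were not planned either.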
